A study of Mus musculus with 8 samples.

Results

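The NF-kB family and its feedback inhibitors were followed as 10 genes, taken by symbol from the 53700 genes of the count table. The 5 subunit genes were Nfkb1, Nfkb2, Rel, Rela and Relb. The other 5 genes, Nfkbia, Nfkbie, Bcl3, Tnfaip3 and Tnip1, encode IkB proteins or act on the signalling steps that lead to NF-kB. Each symbol matched 1 protein-coding gene, and all 10 passed the filter on low counts that left 12132 genes for testing.

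Polyadenylated RNA was measured in 8 libraries, 1 for each of 2 blood-forming cell types from donors of 4 genotypes. Haematopoietic stem cells (HSC, CD48- CD150+) and multipotent progenitors (MPP, CD48+ CD150-) were sorted from the LSK gate of mouse bone marrow, a gate on lineage-negative cells that display Sca-1 and Kit. Donor cells carried CD45.2 and had been placed in irradiated wild-type recipients carrying CD45.1, and the sort took CD45.2 cells 13 weeks later, so recipient blood cells were outside the gate. Each library pooled the cells of 5 recipients. Donors labelled WT were Nfat5 +/+ with Vav-Cre, donors labelled N5 were Nfat5 fl/fl with Vav-Cre, donors labelled IFNAR were IFNAR1-deficient, and donors labelled DKO combined the Nfat5 fl/fl Vav-Cre genotype with IFNAR1 deficiency. Vav-Cre is a recombinase driven by a promoter active throughout the blood system, so deletion is not limited to the sorted cells. The protein made from Nfat5 is a transcription factor that responds to osmotic stress and has a DNA-binding region related to that of NF-kB, and Ifnar1 codes for 1 of the chains that form the receptor of type I interferons. Neither the ages of the mice nor the Cre status of the IFNAR donors is given in the sources used here.

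NF-kB proteins are dimers of Rel-family subunits that are held in the cytoplasm by IkB proteins until a kinase complex marks the IkB for destruction. The freed dimers enter the nucleus and bind kappaB sites in DNA, and among the genes they are known to induce are several of their own subunits and inhibitors, which limits the response in time. In blood stem cells the pathway is known for its part in survival and in the response to inflammation, and Rela and Nfkb1 are the usual pair of the canonical pathway while Relb and Nfkb2 form that of the alternative one.

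The sequence upstream of the members bears on that feedback. RefSeq promoters of build GRCm38.p6 were matched by symbol for 8 of the 10 members, and Nfkb1 and Relb had no entry. The kappaB consensus, which starts with a run of G and a purine and ends with pyrimidines and a run of C, was searched on both strands over the 250 bases before each annotated start, and matches to it may overlap each other. It was found for 6 of 8 members (Nfkb2, Rel, Nfkbia, Nfkbie, Tnfaip3 and Tnip1) and for 8.23% of 27025 genes in the table, or 7.25% of 32851 promoters. Rela and Bcl3 held no match in that window. The windows of Nfkbia and Tnfaip3 are shown in full because the results below turn on these genes, and a short stretch is shown for the other members with a match. Capitals mark the bases that match the kappaB consensus. The Nfkbia window is chr12:55492648-55492897 and the Tnfaip3 window is chr10:19015411-19015660, both on the minus strand.
Nfkbia: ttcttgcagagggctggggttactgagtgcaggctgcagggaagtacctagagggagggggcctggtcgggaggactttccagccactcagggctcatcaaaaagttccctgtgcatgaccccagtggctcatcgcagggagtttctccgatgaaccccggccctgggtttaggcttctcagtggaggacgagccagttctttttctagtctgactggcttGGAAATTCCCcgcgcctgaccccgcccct
Tnfaip3: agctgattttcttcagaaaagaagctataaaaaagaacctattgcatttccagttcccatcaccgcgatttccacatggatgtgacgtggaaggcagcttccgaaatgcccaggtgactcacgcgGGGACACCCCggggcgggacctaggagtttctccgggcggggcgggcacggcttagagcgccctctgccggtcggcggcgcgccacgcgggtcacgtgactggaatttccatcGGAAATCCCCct
The stretches of the other members are chr19:46304690-46304716 on the plus strand for Nfkb2, chr11:23771043-23771069 on the minus strand for Rel, chr17:45555586-45555611 on the plus strand for Nfkbie and chr11:54962979-54963006 on the minus strand for Tnip1.
Nfkb2: atcgtcacGGGAATTCCCCccctcggg
Rel: taagcagcGGGAAATCCCCccccctcc
Nfkbie: agcaaacaGGGGGATTCCggaggggc
Tnip1: ccatcatgGGGGAATTCCCCtcctgcct

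Measured from the annotated start, the match of Nfkbia ran from -29 to -20 and the nearest match of Tnfaip3 from -12 to -3. TGGAAA, the core bound by NFAT5, was searched on both strands and lay upstream of 3 of 8 members (Nfkb2, Nfkbia and Tnfaip3) and of 20.9% of genes. The TGGAAA match of Nfkbia at -30 to -25 overlapped its kappaB match. These are matches of letters and say nothing of binding in these cells.

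**Figure D1:**
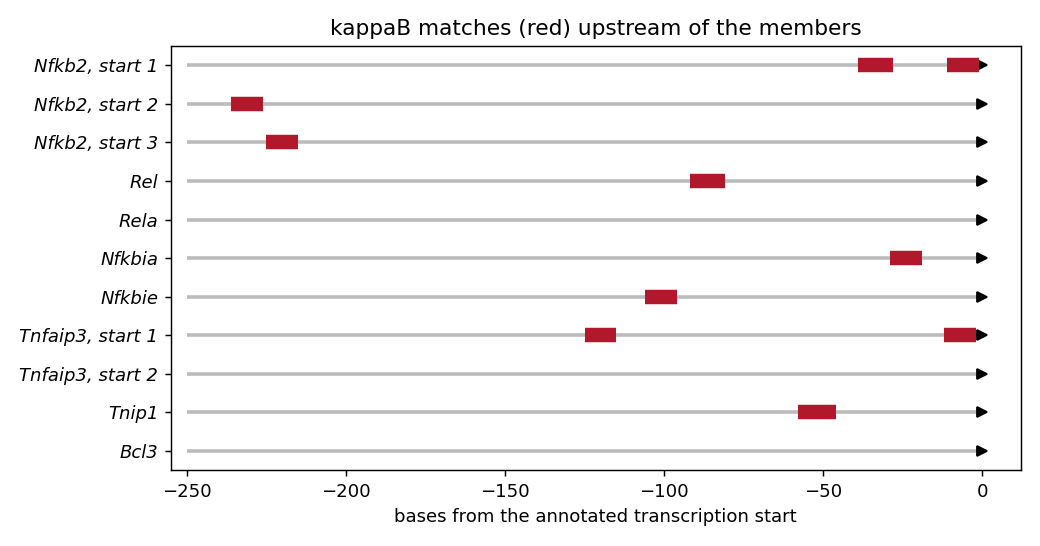
Positions of kappaB consensus matches (red) in the 250 bases before each annotated start (black arrowheads at 0) of the 8 members with a RefSeq promoter, with the distance from the start in bases on the horizontal axis. Nfkb2 has 3 annotated starts and Tnfaip3 has 2, and Rela and Bcl3 show no match.

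The libraries held 28871693 to 47205950 counts, and 13510 to 14781 genes had at least 1 count. The sort was visible in its own markers, since the summed level of 7 stem cell genes ran from 2517 to 2647 CPM in HSC against from 1118 to 1480 CPM in MPP, and that of 5 progenitor genes from 258 to 552 CPM in HSC against from 6812 to 11750 CPM in MPP. CPM give a gene's counts relative to the library total after scaling for library composition (TMM), and since they are not divided by transcript length they were compared between libraries and not between genes. The targeted genes did not follow their labels. Nfat5 ran from 0.193 to 35.5 CPM, with 22.7 CPM in the HSC library labelled N5 and 3.12 CPM in the one labelled IFNAR, and Ifnar1 had 113 CPM in the HSC library labelled IFNAR and 125 CPM in the MPP library labelled DKO. The libraries go by their labels here, and each direction below for Nfat5 or Ifnar1 rests on labels that these transcripts did not follow. Which exons were deleted is not given in the sources used here. With 1 library per group, each factor was tested over libraries matched on the others, and the p-values measure only the spread between these libraries. Every SD with n = 4 below is likewise taken over different groups and not over replicates. For a cell type it spans the 4 genotype labels, and for a label of gene loss it mixes HSC and MPP libraries of different labels. In pools of cells, fewer expressing cells and less RNA per cell cannot be told apart.

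The NF-kB and Rel subunits were present in both cell types. Rela, the main activating subunit, had 119, 135, 197 and 302 CPM in the HSC libraries, in the order WT, N5, IFNAR and DKO that is kept for all members. The MPP libraries held 113, 122, 167 and 82.9 CPM of it. HSC lay above MPP in all 4 genotypes, but the ranges overlapped, and the pair labelled DKO stood apart from the others at 3.64-fold against 1.05-fold to 1.18-fold. Of all genes tested, 9.81% were higher in HSC in 4 of 4 pairs. The mean was 188 ± 82.7 CPM in HSC against 121 ± 34.9 CPM in MPP (SD, n = 4 each), a log2 fold change of 0.56 with a standard error of 0.36 and an adjusted p of 0.717 with edgeR's quasi-likelihood test.

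Nfkb1, which encodes the p105 precursor of p50, had 143, 130, 293 and 190 CPM in the HSC libraries in that order of labels and 154, 145, 90.8 and 185 CPM in the MPP libraries. The library labelled IFNAR was the highest of the HSC and the lowest of the MPP, and the other 6 lay between 130 and 190 CPM. Over all 4 genotypes the levels overlapped, at 189 ± 74.1 CPM in HSC against 144 ± 39.0 CPM in MPP (SD, n = 4 each).

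The alternative pathway's subunits varied more between libraries of 1 cell type than between the cell types. Nfkb2, the precursor of p52, had 79.4, 19.3, 56.0 and 32.6 CPM in HSC against 29.8, 43.8, 55.2 and 17.8 CPM in MPP. Relb, its partner, had 36.4, 34.1, 11.8 and 16.1 CPM in HSC against 10.9, 5.97, 27.2 and 18.9 CPM in MPP. Relb was higher in HSC than in MPP for the labels WT and N5, by 3.33-fold and 5.71-fold, and lower for IFNAR and DKO. The cell type by Ifnar1 interaction for Relb had a log2 value of -2.77 (SE 1.41) and an adjusted p of 0.999 with edgeR.

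Rel, the c-Rel subunit best known from lymphocytes, was at 23.8, 21.8 and 20.1 CPM in HSC under the labels WT, N5 and IFNAR. It had 0 counts in the HSC library labelled DKO, where 3 counts would be 0.0633 CPM. The MPP libraries held 18.1, 15.5, 24.1 and 20.2 CPM. The 7 libraries with counts lay between 15.5 and 24.1 CPM, and the library with none had the most counts in total of all 8. Among the 9278 genes with a mean of at least 10 CPM, 1.3% had 0 counts in that library alone.

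**Figure D2:**
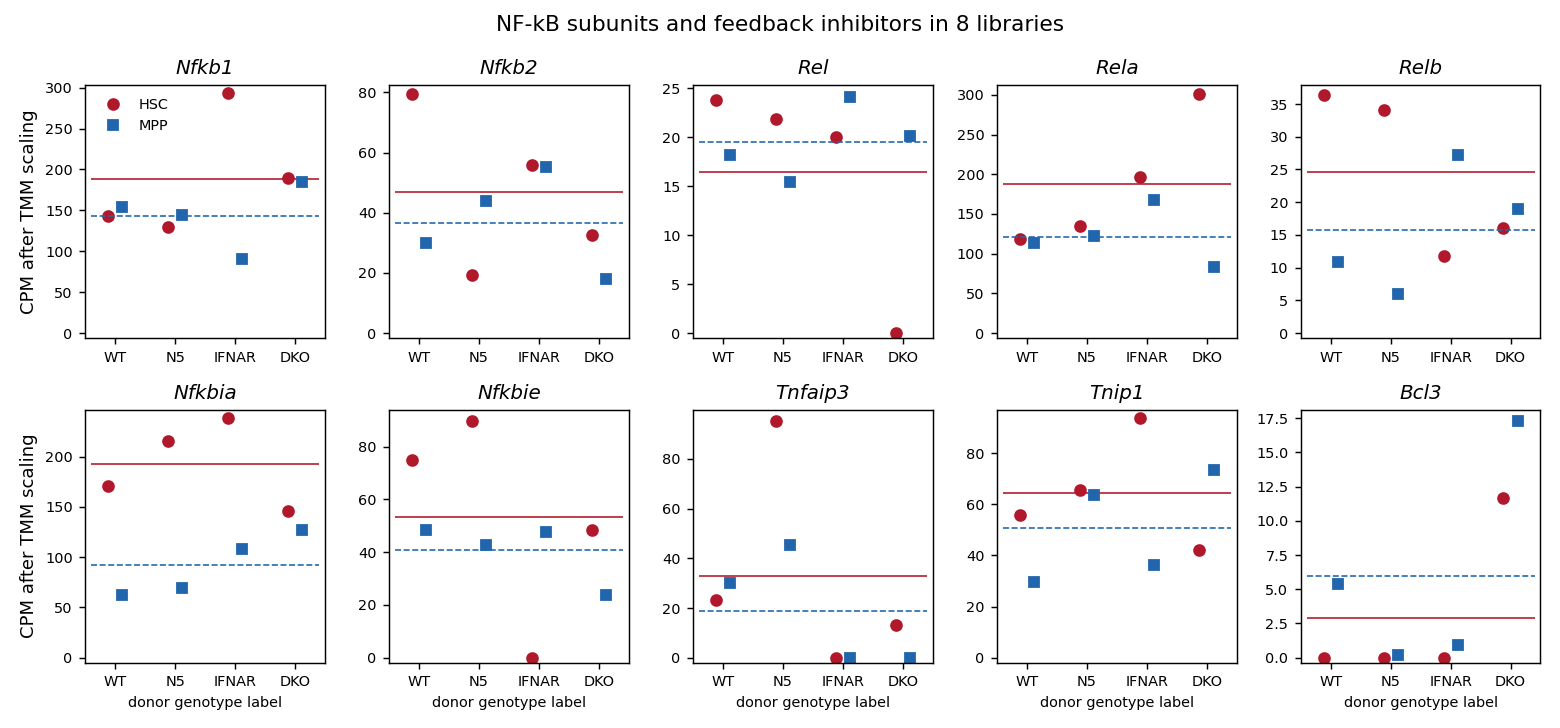
Level of each member in CPM after TMM scaling (vertical axes, linear, own scale per gene) in the libraries of each donor genotype label, with HSC as red circles and MPP as blue squares, 1 point per library. Lines are the means of 4 libraries (red solid for HSC, blue dashed for MPP). Nfkbia is the panel in which all HSC points lie above all MPP points, and points at 0 appear for Rel, Nfkbie, Tnfaip3 and Bcl3.

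Nfkbia encodes IkB alpha, the inhibitor that is destroyed and remade in each round of signalling. Its levels in HSC were 171, 216, 238 and 146 CPM, and in MPP they were 62.1, 69.6, 108 and 127 CPM. Every HSC library lay above every MPP library, and Nfkbia was the 1 member of 10 of which this held. Of all genes tested, 4.73% had all HSC libraries higher and 5.65% had all lower. The mean was 193 ± 41.8 CPM in HSC against 91.7 ± 31.1 CPM in MPP (SD, n = 4 each), or 2.10-fold, and the matched pairs gave 2.75-fold, 3.10-fold, 2.21-fold and 1.14-fold in that order of labels.

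The log2 fold change of Nfkbia between the cell types was 1.11 (SE 0.29) with an adjusted p of 0.324 in edgeR's quasi-likelihood test, and with DESeq2 the adjusted p was 0.00148. edgeR called 2 of 12132 genes (0.0165%) and DESeq2 called 15.5% of them. Over 16 alternative settings the log2 fold change stayed between 0.93 and 1.41 and the adjusted p ran from 0.00148 to 0.644. Of these settings 8 left out 1 library. With genotype as block, leaving out either library of a pair gave nearly the same fit, so they amount to 4 distinct ones. The lack of overlap also held with DESeq2's size factors and with the total count as scaling. The summed level of 12 immediate early genes, which respond to handling, ran from 447 to 546 CPM in HSC against from 316 to 429 CPM in MPP, and 6 megakaryocyte markers summed to 330 to 720 CPM in HSC against 45.6 to 166 CPM in MPP. Of the 12 immediate early genes 8 to 9 had counts in an HSC library and 9 to 11 in an MPP library, with Atf3 at 0 in 4 HSC and 3 MPP libraries and Fos in 2 and 1. Other marker sums were lower in HSC without overlap. Those of 7 B cell genes were 48.3 to 119 against 1026 to 2436 CPM, from 2 to 5 genes with counts against 5 to 6. Those of 7 T and NK cell genes were 34.0 to 66.2 against 310 to 371 CPM, from 1 gene against 1 to 3. Cd3e, Cd3d and Trac had no counts in any library. Those of 5 dendritic cell genes were 94.7 to 121 against 598 to 766 CPM, from 2 genes against 2 to 3. Flt3 was shared by this list and the progenitor genes. Those of 7 stroma and endothelium genes nearly met, at 46.7 to 125.4 against 125.8 to 238.5 CPM, from 2 to 3 genes in both cell types. The part of these sums in the difference was not tested.

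Nfkbie encodes IkB epsilon, a slower inhibitor that is likewise induced by NF-kB. It had 75.0, 89.6, 0 and 48.2 CPM in HSC against 48.4, 42.8, 47.8 and 23.6 CPM in MPP. The 0 fell in the HSC library labelled IFNAR, where 3 counts would be 0.0766 CPM. Of genes with a mean of at least 10 CPM, 2.55% had 0 counts in that library alone. In the other genotypes HSC lay above MPP by 1.55-fold to 2.09-fold. In 4 of 4 pairs the library labelled IFNAR or DKO lay below its match labelled WT or N5, at 29.9 ± 23.0 against 63.9 ± 22.1 CPM (SD, n = 4 each). This direction in 4 of 4 pairs was shared by 6.16% of genes tested. In MPP the pair of IFNAR and WT differed by 1.01-fold, and the adjusted p was 1 with edgeR (log2 fold change -1.12, SE 1.63). The log2 fold change ranged from -2.45 without the MPP library labelled IFNAR to -0.49 without the HSC library of that label.

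Bcl3 encodes a nuclear IkB-like protein that binds p50 and p52 dimers and can help them activate genes. It had 0 counts in the HSC libraries labelled WT, N5 and IFNAR and 11.7 CPM in the one labelled DKO. The MPP libraries had 5.39, 0.176, 0.963 and 17.3 CPM, the lowest of them from 5 counts. The library labelled DKO was the highest of its cell type in both cell types. HSC lay below MPP in 4 of 4 pairs, as did 12% of genes tested, with an edgeR adjusted p of 0.524 and a DESeq2 adjusted p of 0.0156. In the pair labelled N5 this was 0 against 5 counts, with a log2 ratio interval of -4.30 to 0.23. With 0 counts in most HSC libraries, Bcl3 could pass the filter only with its MPP libraries. The direction was therefore partly set by the filter.

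The product term for Nfat5 and Ifnar1, which asks whether both losses together differ from the sum of each, had a log2 value of 13.32 for Bcl3 (SE 4.39, adjusted p = 1 with edgeR). With DESeq2 the adjusted p was 0.0339. Unadjusted p was under 0.05 for 3.33% of genes with edgeR, and DESeq2 called 3.24%. The log2 values of a gene with 3 libraries at 0 depend on the prior count and carry no fold, and reads of Bcl3 may be shared with an antisense gene, Gm16175, that covers 6.51% of its exonic bases in GENCODE M21.

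Tnfaip3 encodes A20, a ubiquitin-editing enzyme that shuts down signalling above the IkB kinase, and it was the member with the widest spread over the libraries. The HSC libraries had 23.1, 95.1, 0 and 13.3 CPM and the MPP libraries 29.9, 45.4, 0 and 0 CPM, in the order WT, N5, IFNAR and DKO. All 4 libraries labelled WT or N5 lay above all 4 labelled IFNAR or DKO, of which 3 had 0 counts. The filter asked for counts in 4 libraries, so a gene with these 3 at 0 needed counts in most libraries labelled WT or N5. The lack of overlap was therefore partly set by the filter. Where the count was 0, 3 counts would be 0.0766, 0.0825 and 0.0849 CPM. All libraries labelled IFNAR or DKO being lower was seen for 1.37% of genes tested, and 0 counts in at least 3 of those 4 with counts in all others for 67 genes (0.552%), against 27 genes (0.223%) with the labels exchanged. These shares were all taken after the same filter.

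The mean of Tnfaip3 was 3.34 ± 6.67 CPM under IFNAR and DKO and 48.4 ± 32.5 CPM under WT and N5 (SD, n = 4 each), and the mean under IFNAR and DKO rests on 1 library with counts. Each side mixes HSC and MPP libraries, so these SDs are no spread between replicates. The fitted log2 value was -7.80 (SE 3.32) with an adjusted p of 1 in edgeR and of 0.0384 in DESeq2. Over 15 alternative settings it lay between -13.28 and -3.73, and with 3 libraries at 0 it depends on the prior count and gives no fold. The libraries labelled IFNAR or DKO were also the more deeply sequenced, with 35167470 to 47205950 counts against 28871693 to 34836941, and the part of depth was not tested. In the libraries with an intact receptor by label, N5 lay above WT by 4.12-fold in HSC and by 1.52-fold in MPP, with no replicate check.

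Tnip1 encodes ABIN1, an adaptor protein that binds A20. It had 55.8, 65.7, 93.8 and 42.1 CPM in HSC against 29.5, 63.6, 36.4 and 73.5 CPM in MPP. Its 8 values spanned 3.17-fold with no zero, and the cell types overlapped at 64.3 ± 21.9 and 50.8 ± 21.1 CPM (SD, n = 4 each). In the 3 libraries where Tnfaip3 had no counts, Tnip1 lay between 36.4 and 93.8 CPM.

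Between HSC and MPP, 7 of 10 members had a higher fitted level in HSC, against 44.2% of all genes tested, with a median log2 fold change of 0.37 among the members and -0.10 among all genes. No member passed an adjusted p of 0.05 in edgeR, where the members' adjusted p ran from 0.324 to 0.996. An unadjusted p under 0.05 was met by 1 member (Nfkbia) and by 10.1% of all genes. DESeq2 called 2 of 10 members (Nfkbia higher and Bcl3 lower in HSC), beside 15.5% of all genes. The direction of Bcl3 was partly set by the filter. The limma-voom fit called 0 members, beside 156 of 12132 genes.

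For the label of Nfat5 loss, N5 and DKO were set against WT and IFNAR, with HSC and MPP libraries together on each side. edgeR called 0 genes (0%), and 0 members had an unadjusted p under 0.05, against 338 genes (2.79%). DESeq2 called 166 genes (1.37%) and 0 members. The members' median log2 fold change was 0.05 and that of all genes 0.02. No member was higher in 4 of 4 pairs (5.79% of genes were) and none had groups without overlap (1.26% of genes were higher and 1.01% lower in this way). Rel was lower in 4 of 4 pairs, as were 5.35% of genes, by 1.09-fold to 1.20-fold in the 3 pairs with counts on both sides. Tnfaip3 was higher in 3 of 4 pairs, and the other pair was at 0 on both sides. It had 38.5 ± 42.3 CPM under N5 and DKO and 13.2 ± 15.5 CPM under WT and IFNAR (SD, n = 4 each). Its unadjusted p was 0.273 with edgeR, 0.0236 with limma-voom and 0.0377 with the bias-adjusted quasi-likelihood method. The adjusted p was 0.917 with limma-voom and 0.96 with the bias-adjusted method. Nfkb2 showed 28.4 ± 12.2 CPM under N5 and DKO and 55.1 ± 20.3 CPM under WT and IFNAR (SD, n = 4 each), with a log2 fold change of -0.94 (SE 0.53, adjusted p = 1 with edgeR). It was lower in 3 of 4 pairs, and the pair of N5 and WT in MPP went the other way at 1.47-fold. Nfkb2 overlaps AC114539.1 and Psd on the opposite strand over 11.6% and 6.52% of its exonic bases in GENCODE M21, and reads there cannot be told apart.

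For the label of Ifnar1 loss, IFNAR and DKO were set against WT and N5, with HSC and MPP libraries together on each side. edgeR called 0 genes (0%) and 398 genes (3.28%) had an unadjusted p under 0.05, none of them a member. DESeq2 called 233 genes (1.92%) and 1 member, Tnfaip3, whose separation by label was partly set by the filter. The members' median log2 fold change was 0.16 against -0.01 for all genes. No member was higher in 4 of 4 pairs, which held for 5.9% of genes, or higher without overlap, which held for 1.01%. Rela was higher in 3 of 4 pairs (187 ± 90.3 against 122 ± 9.49 CPM, SD, n = 4 each) and Nfkb1 likewise in 3 of 4 (190 ± 82.7 against 143 ± 10.04 CPM). For both genes the libraries labelled WT or N5 were close together in the 2 cell types while those labelled IFNAR or DKO were spread on both sides of them. No interaction passed for any member in edgeR (adjusted p from 0.999 to 1), with an unadjusted p under 0.05 for 1 member (Bcl3), in the product of Nfat5 and Ifnar1. Over all genes the shares with an unadjusted p under 0.05 were 4.42% for cell type by Nfat5 and 4.82% for cell type by Ifnar1, and edgeR called 0% in all 3 interactions. DESeq2 called 4.82% and 5% of genes in these, without a member.

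**Figure D3:**
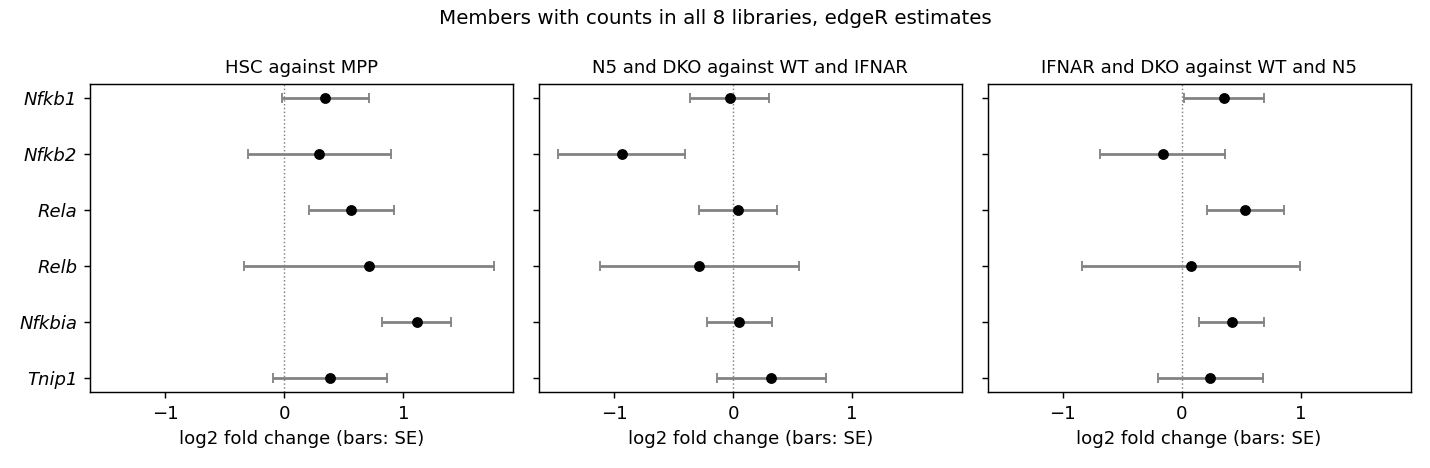
edgeR log2 fold changes (horizontal axis, bars are standard errors) of the 6 members with counts in all 8 libraries, for HSC against MPP, for the label of Nfat5 loss and for the label of Ifnar1 loss. Nfkbia between cell types (1.11) lies farthest from 0 relative to its error, and none of the values passed an adjusted p of 0.05.

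Zeros were found in Rel, Nfkbie, Tnfaip3 and Bcl3. Of the 80 member values, 8 were 0 (10%), against 6.85% of values over all genes tested. They fell in 4 of 10 members (40%), and 27.2% of genes tested had at least 1 zero. Among genes with a mean of at least 10 CPM the share was 16.9%, and at 10 to 50 CPM it was 32.3%. The HSC library labelled IFNAR held 3 of the 8 zeros (Nfkbie, Tnfaip3 and Bcl3), and it also had the largest share of genes at 0 among those with a mean of at least 10 CPM, at 5.35% against 1.8% to 4.98% in the others.

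The genes whose pattern over the 8 libraries was most like that of a member were sought among 8812 genes for the 4 members with the widest spread, by the root mean square difference of centred log2 levels. For Rel these were Mecr, Polr3a and Mks1 (0.30, 0.43 and 0.44, against a median of 3.08 over all genes searched), which were also at 0 in the HSC library labelled DKO. For Nfkbie they were Ttll1, Osgin2 and Abtb1 (0.49, 0.50 and 0.51, median 3.43), each at 0 in the HSC library labelled IFNAR. For Tnfaip3 they were Phf11d, Ap3m2 and Zfp521 (0.79, 0.96 and 1.11, median 4.61), at or near 0 in the same 3 libraries. For Bcl3 the nearest, Afap1, Rab5a and Zdhhc15, lay at 1.57, 1.79 and 1.83 (median 3.39). All of these genes were measured in the same libraries and share their depth. A zero weighs heavily in log2 levels, so genes at 0 in the same libraries come out nearest by construction. The shared zeros are therefore no result, and the median over all genes is no fair comparison. Of 9278 genes with a mean of at least 10 CPM, 121 were at 0 in the HSC library labelled DKO alone. For the HSC library labelled IFNAR alone it was 237.

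The rest of the pathway was read from 6 lists, of which 67 of 91 genes passed the filter. edgeR called 0 of them in either direction in each of the 3 main comparisons. Unadjusted p was under 0.05 for 11 of 67 between HSC and MPP, against 10.1% of all genes, and for 1 of 67 for each label of gene loss, against 2.79% for Nfat5 and 3.28% for Ifnar1. DESeq2 called 14 of 67 between the cell types (8 higher and 6 lower in HSC) and 0 for each loss, and limma-voom called 1, 0 and 0. The 14 of 67 stand beside 15.5% of all genes, and the 1 of limma-voom beside 156 of 12132. In the interactions edgeR and limma-voom called 0 of 67. DESeq2 called 0 for Nfat5 by Ifnar1, 7 for cell type by Nfat5 and 3 for cell type by Ifnar1. These stand beside 3.24%, 4.82% and 5% of all genes.

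The kinase complex that destroys IkB and its adaptors were measured in full, 19 of 19, with 8 higher and 11 lower in HSC and a median log2 fold change of -0.11. The 3 with the highest mean CPM, a rank that transcript length also affects, were Rbck1, Ikbkb and Ikbkg. Rbck1 is a part of the linear ubiquitin ligase, Ikbkb a kinase and Ikbkg a scaffold. Ikbkb had 153 ± 39.5 CPM in HSC against 171 ± 50.2 CPM in MPP (SD, n = 4 each), and Ikbkg had 142 ± 69.7 and 103 ± 30.7 CPM. In this list Tirap, an adaptor of Toll-like receptors, and Rnf31, the catalytic part of the linear ubiquitin ligase, were higher in all HSC libraries. Tirap had 36.8 ± 6.93 against 6.11 ± 2.28 CPM and Rnf31 had 105 ± 28.2 against 43.8 ± 18.7 CPM (SD, n = 4 each), with adjusted p of 0.365 and 0.425 in edgeR. These genes, and the others named for lack of overlap, were chosen after their values were seen. Over the 67 genes there were 4 higher and 3 lower in HSC without overlap, beside 4.73% and 5.65% of all genes tested. Of those lower, Ccl3 and Bcl2a1b had no counts in HSC and passed the filter through their MPP libraries alone. Their lack of overlap was therefore fixed by the filter. Il1r1 was at 0 in 3 HSC libraries and needed its MPP libraries to pass, so its lack of overlap was largely set in the same way.

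The alternative pathway's 4 genes were all measured, 3 of them higher in HSC, with a median log2 fold change of 0.50. Its kinase Map3k14 (NIK) had 34.6 ± 16.7 CPM in HSC against 17.4 ± 8.22 CPM in MPP, and the ubiquitin ligases Birc2 and Birc3, which keep that kinase low, had 71.4 ± 43.2 against 66.8 ± 15.2 and 66.6 ± 34.7 against 57.6 ± 14.8 CPM (SD, n = 4 each). Of 17 other inhibitors, 9 were higher and 8 lower in HSC, with a median of 0.11. Tax1bp1, with the highest mean CPM of these, is a partner of A20 and had 503 ± 106 CPM in HSC against 459 ± 30.5 CPM in MPP (SD, n = 4 each).

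Receptors were measured for 10 of 17 genes and ligands for 2 of 9. The receptors of tumour necrosis factor, Tnfrsf1a and Tnfrsf1b, had 114 ± 13.9 and 137 ± 50.9 CPM in HSC against 87.4 ± 18.8 and 107 ± 6.75 CPM in MPP (SD, n = 4 each). The interleukin 1 receptor Il1r1 had 0, 0, 5.72 and 0 CPM in HSC against 26.0, 47.8, 16.4 and 84.7 CPM in MPP, without overlap. With 3 HSC libraries at 0 it needed its MPP libraries to pass the filter. Its lower level in HSC was therefore largely set by the filter and is no test. The ligand Ltb (lymphotoxin beta) was higher in HSC without overlap, at 140 ± 28.1 against 55.3 ± 19.3 CPM (SD, n = 4 each, adjusted p = 0.320 with edgeR). The inflammatory ligands were scarce. Il1b and Lta had 0 counts in all 8 libraries, and Tnf had counts in 2 of them, with 2.35 CPM at most.

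Among the other induced targets, 15 of 25 were measured, 8 higher and 7 lower in HSC, with a median log2 fold change of 0.05. Tgm2, a transglutaminase, had 784 ± 168 CPM in HSC against 9.62 ± 11.5 CPM in MPP (SD, n = 4 each, edgeR adjusted p = 0.365). The chemokine Ccl3 and the survival factor Bcl2a1b had 0 counts in all HSC libraries and 2.30 ± 1.49 and 5.69 ± 2.82 CPM in MPP (SD, n = 4 each). Both passed the filter through the MPP libraries alone, so their lack of overlap is no test. Bcl2a1b has near-identical paralogs, so its count is uncertain. Fth1 (ferritin heavy chain) and Irf1 (an interferon-related transcription factor) had overlapping levels, at 951 ± 104 against 1014 ± 23.5 CPM and 198 ± 30.8 against 194 ± 50.7 CPM (SD, n = 4 each). Il6, Cxcl1 and Cxcl2, which code for secreted inflammatory proteins, had 0 counts in all 8 libraries. For the label of Ifnar1 loss the targets had 5 genes above and 10 below 0 (median log2 fold change -0.37). Of all genes 49.6% were above 0 (median -0.01). For the label of Nfat5 loss 9 were above and 6 below (median 0.08), beside 51.6% of all genes above 0 (median 0.02). The direction is uncertain for targets with libraries at 0, among them Ccl3, Bcl2a1b, Vcam1, Gadd45b and Traf1.

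**Figure D4:**
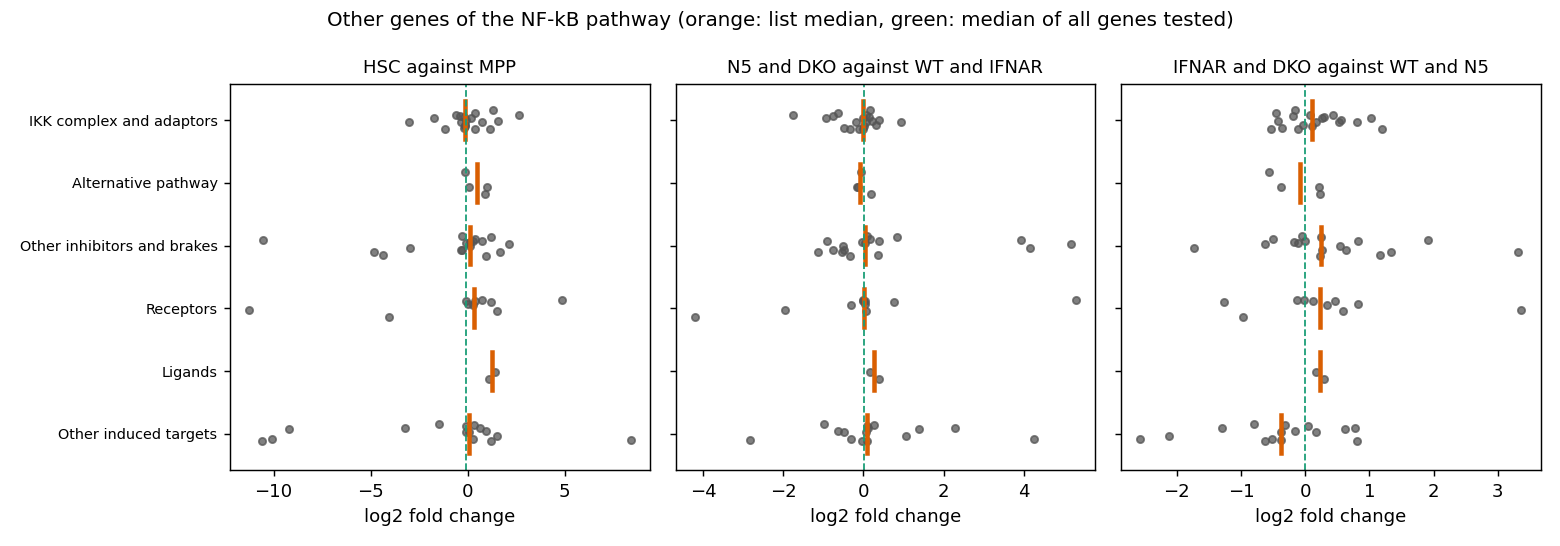
edgeR log2 fold changes (horizontal axes, a scale of its own per panel) of the 67 other NF-kB pathway genes tested, by list, for the 3 main comparisons, 1 grey point per gene. Orange bars are list medians and green dashed lines the median of all genes tested. In HSC against MPP the medians run from -0.11 to 1.24, the latter over the 2 measured ligands, and the points farthest from 0 are genes with libraries at 0.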

How the data were processed

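The values are whole-number counts per gene in 8 libraries, as deposited by the authors without normalization. Per the labels' protocols, RNA was extracted with a column kit and amplified by Smart-Seq2, which marks neither strand nor molecule. Per the submitters' processing notes, STAR 2.7.8a, RSEM 1.3.0 and GRCm39 were used. No annotation release, strand setting or batch is given in the sources used here.

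Counts were tested with edgeR 4.0.16 (quasi-likelihood test, TMM factors, filterByExpr by cell type, 12132 genes, Benjamini-Hochberg adjustment at 0.05) in R 4.3.3. The cell types were contrasted within genotypes (genotype as block, 3 degrees of freedom left), and each label of gene loss with cell type and the other gene as terms (4), and interactions by product terms (3). Standard errors were derived from the fold change and its test statistic. Alternatives used DESeq2 1.42.0, limma 3.58.1 (voom), other scalings and filters, and each library left out. Single-library ratios used a prior count of 2, floors 3 counts per library and intervals an exact Poisson 95% that covers counting error only. The code was tested on simulated data.

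All 10 members were named. Pathway lists were given by counts and at most the 3 measured genes with the highest mean CPM. Beyond these, genes without overlap between HSC and MPP were named after their values were seen, as were some genes with few or no counts. The 3 likest genes were named for members with an SD of log2 levels of at least 1. The members, lists and tests were chosen with earlier results of these data known. Promoter letters come from RefSeq on GRCm38.p6 and overlaps from GENCODE M21, on an earlier build than the counts. Nothing says that the pools were handled separately, so the spread may be partly technical.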

Additional observations from a re-analysis of the deposited data

Results flagged for a closer look

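Rel in the 4 HSC libraries was marked by the gap between 1 library and the rest. The library labelled DKO had 0 counts while the other HSC libraries had 20.1 to 23.8 CPM, and the gap to the nearest library made up 0.844 of the range, above the critical value of Dixon's test for 4 samples.

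Bcl3 in the 4 HSC libraries was marked as well, with 11.7 CPM under the label DKO and 0 counts in the others. With 3 of 4 values at 0 the gap is the whole range (a value of 1) whatever the fourth value is, so the mark was fixed by the zeros and is no test. Of 20 groups of 4 libraries examined over the members 2 were marked. Chance marks about 1 in 20, and over all genes tested the same rule marked 2117 of 24183 groups (8.75%).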

How the results depend on the processing

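Of 217 log2 fold changes of members under settings other than leaving out a library, 205 kept their direction and side of the threshold. DESeq2 brought 3 past it (Nfkbia and Bcl3 between HSC and MPP, and Tnfaip3 for Ifnar1 loss). For HSC against MPP, Nfkbie turned from -0.09 to 0.64 with limma-voom, 0.22 with the bias-adjusted quasi-likelihood method, 0.39 with no genotype block and 0.012 with additive Nfat5 and Ifnar1 terms. For Nfat5 loss, Nfkbia turned to -0.17 with limma-voom and -0.012 with the bias-adjusted method. For Ifnar1 loss, Nfkb2 turned to 0.058 with limma-voom, and Relb to -0.61 with limma-voom and -0.26 with the bias-adjusted method.

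Leaving out 1 library at a time reversed 36 of 240 member values and brought none past the threshold. For HSC against MPP, leaving out either library of a genotype drops the same pair, so each such reversal is counted for both libraries. For HSC against MPP the ranges were -0.081 to 0.52 for Nfkb1, -0.094 to 0.77 for Nfkb2, -1.53 to 0.21 for Rel and -0.76 to 0.91 for Nfkbie. For Nfat5 loss they were -0.33 to 0.32 for Nfkb1, -0.28 to 0.34 for Rela, -0.75 to 0.23 for Relb, -0.16 to 0.30 for Nfkbia, -0.34 to 1.64 for Nfkbie and -2.72 to 8.23 for Bcl3. For Ifnar1 loss they were -0.40 to 0.39 for Nfkb2, -1.53 to 0.15 for Rel, -0.51 to 0.68 for Relb, -0.16 to 0.55 for Tnip1 and -0.72 to 8.87 for Bcl3.

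Genes called between HSC and MPP numbered 2, and 23 with a filter of 10 CPM in 4 libraries (where Bcl3 was not tested), 1880 with DESeq2, 156 with limma-voom, 107 with the bias-adjusted method, 207 with no genotype block, 32 with additive terms and 0 to 0 when 1 library was left out. For Nfat5 loss DESeq2 called 166, and for Ifnar1 loss DESeq2 called 233 and limma-voom and the bias-adjusted method 1 each. For the interactions DESeq2 called 393 (Nfat5 by Ifnar1), 585 (cell type by Nfat5) and 607 (cell type by Ifnar1). The causes were not tested. The labels carry no replicate numbers that could pair libraries, so pairing was by genotype and cell type labels alone, and the genotype block is part of the main comparison of cell types. At 3 counts the floor was 0.0633 to 0.105 CPM, and low counts also limit Bcl3 in the MPP library labelled N5, which rests on 5 counts.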
